A study of Homo sapiens with 60 samples.

Results

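The comparison described here is the last dose step at 24 h in MDA-MB-231 cells, from 300 nM to 1000 nM of the compound BAY2506856. It sets the 3 libraries labelled 1000 nM at 24 h against the 3 labelled 300 nM at 24 h. The difference thus rests on 6 of the 60 libraries of the series, all chosen by their labels. The question was which genes had already reached their final level at 300 nM and which changed further at 1000 nM. MDA-MB-231 is an established human breast cancer line of the basal, mesenchymal kind. Its cells received BAY2506856 at 100, 300 or 1000 nM or the solvent DMSO, and polyA RNA was sequenced with 3 libraries for each dose and time and 6 for DMSO at 24 h. The labels name no target of the compound and no genetic change, and all groups share the same line. They also do not say whether the libraries of a group came from separate cultures. The p-values of the main fit measure the spread between libraries of a group, pooled over all 60 libraries, and this spread may be technical.

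YAP1 and TAZ are co-activators that bind TEAD transcription factors and switch on target genes, among them CTGF, CYR61 and ANKRD1. They are held in the cytoplasm by the Hippo kinases and otherwise act in the nucleus. Genes of DNA replication are switched on by E2F factors when a cell enters S phase, and genes of mitosis follow later in the cycle.

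The levels below are FPKM, reads per kilobase of gene and per M reads (M, mega), and a difference is a log2 difference of FPKM + 0.5. A gene was called when its Benjamini-Hochberg adjusted p from limma was under 0.05 over the 15866 genes tested. The 1000 nM libraries held 2.27, 31.8 and 2.58 M reads in genes, and the 300 nM libraries 86.5, 1.89 and 56.7 M. These 6 libraries are also of 2 kinds, told apart by an index of 16 gene names, mostly pseudogenes, and the labels do not describe the kinds. Replicates 1 and 3 at 1000 nM and replicate 2 at 300 nM were of the second library type, and the other 3 were of the first type. The type is thus unevenly split over the step, 2 of 3 libraries at 1000 nM against 1 of 3 at 300 nM, and it goes with the depth. For this reason the step is given also from a fit with terms for library type, and within each type, where 1 library stands against 2 in the first type and 2 against 1 in the second. A fit of the first-type libraries alone was also made. The values within the second type have no test. Markers of the basal and mesenchymal line were present in all 6 libraries, with 10 of 10 at 1 FPKM or more. Of the luminal markers 11 of 15 reached 1 FPKM in all 6 libraries. So did 2 of 6 leukocyte markers in the table, CSF1R and LYZ, 1 of 8 fibroblast markers, COL1A2, and none of 4 endothelial markers. The endothelial marker CDH5 and the T cell marker CD3E were listed at 0 in all 6. The summed basal markers ranged from 2460 to 3104 FPKM at 1000 nM and from 2516 to 3198 FPKM at 300 nM. In such bulk samples, fewer cells in a state and less RNA per cell cannot be told apart.

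Most genes that answered to the compound showed no detectable further change between 300 and 1000 nM. Of 15866 genes, 2 were called at the step, which is 0.0126% of those tested, and both were lower at 1000 nM. They were CTGF, a secreted matrix-associated protein, and DKK1, a secreted inhibitor of Wnt signalling. No gene was called higher, while 852 genes had an unadjusted p under 0.05, 375 of them higher and 477 lower. With terms for library type 8 genes were called, 0.0504% of those tested, again all lower, and voom on the recovered reads called 2, both lower. A limma fit of the 2 groups alone called none, with 158 genes at an unadjusted p under 0.05, and a fit of the 4 groups at 24 h called none, with 429. CTGF and DKK1 had the same steps there with adjusted p = 0.994 in the smaller fit and 0.985 in the larger (limma). Their calls thus depended on a spread pooled over libraries beyond those at 24 h. Without 1000 nM replicate 2, the only first-type library at that dose, 92 genes were called, 36 higher and 56 lower. The count was 5 without 1000 nM replicate 3 and 4 without 300 nM replicate 2. The step from 100 to 300 nM, which shares the 300 nM libraries, had 185 calls (1.17% of genes), 56 higher (0.353%) and 129 lower (0.813%), or 641 with type terms (4.04%). All libraries at 100 nM were of the first type, so the types were unevenly split over that step too.

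A gene set chosen in libraries outside the step shows for how many responding genes the step was held within 1.5-fold. At 100 nM, 3122 genes were called against DMSO at 24 h (19.7% of those tested), 1662 higher and 1460 lower. Between 300 and 1000 nM, 2 of these changed further in the same direction and none turned back. For 2502 of them (80.1%) the step was not called and its 95% interval lay within 1.5-fold in either direction. For the other 618 the interval reached beyond 1.5-fold, so that a step of that size was within their error. The share of all genes tested with such a narrow interval was 54.8%. The call at 100 nM and the interval use the same error of each gene. Choosing called genes thus favours narrow intervals, and the gap between the 2 shares is no measure of the response. This holds for the shares with type terms below too. The 2502 genes had a median level of 10.6 FPKM over all libraries, against 3.21 FPKM for the 618 genes. The median half-width of the interval was 0.25 for the 2502 and 0.51 for the 618. The bound of 1.5-fold, 0.58 in log2, is wide for these genes. In the direction of the 100 nM change, the 3122 had a median change of 0.51 at 100 nM. Their median step from 100 to 300 nM was 0.13. An interval within the bound therefore does not show that a gene had reached its final level at 300 nM.

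Taken in the direction of its own change at 100 nM, the median gene of the 3122 moved by -0.01 between 300 and 1000 nM. The middle 90% of them lay between -0.29 and 0.25. The median was 0.05 within the first library type and 0.04 within the second. With type terms, 4855 genes were called at 100 nM (30.6% of those tested), of which 4373 (90.1%, against 70.2% of all genes tested) lay within 1.5-fold, 8 changed further and none turned back. The median was then 0.04, and 64.3% of genes kept the direction of their change at 100 nM, against 47.1% without the terms. What remained of a step was thus small for the typical gene, and its sign depended on how the library types were treated.

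The genes that answered early were chosen in other libraries again. At 6 h, 319 genes were called between 1000 nM and DMSO (2.01% of those tested), 112 higher and 207 lower. In the direction of that change, their median difference from DMSO at 24 h was 0.53 at 100 nM, 0.75 at 300 nM and 0.77 at 1000 nM. By library, the medians were 0.53, 0.52 and 0.53 at 100 nM, 0.74, 0.70 and 0.76 at 300 nM, and 0.72, 0.81 and 0.72 at 1000 nM. All 300 nM libraries lay above all 100 nM libraries, while those at 300 and 1000 nM overlapped. The lowest values at both doses were those of the second library type. Within each type the 1000 nM libraries lay above the 300 nM libraries, with medians of 0.81 against 0.74 and 0.76 in the first type and of 0.72 and 0.72 against 0.70 in the second. The median step of these genes was 0.05 within each type. Of the 319 genes, 295 (92.5%) had a step within 1.5-fold by its interval, 22 were undetermined and 2 changed further. The plot of the early genes by dose shows these medians.

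**Figure D1:**
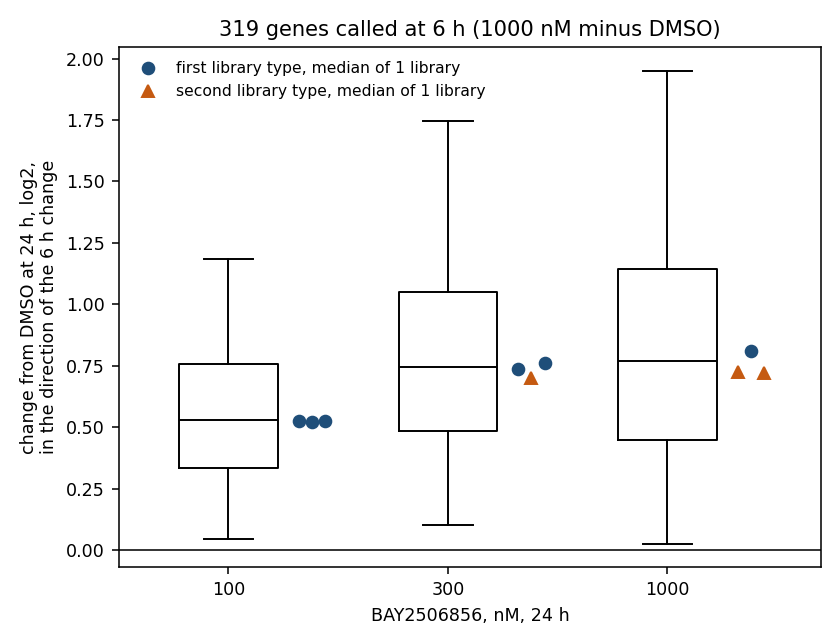
Change from DMSO at 24 h (log2 of FPKM + 0.5) of the 319 genes called at 6 h, signed by their change at 6 h. Boxes show the median, quartiles and the 5th to 95th percentiles over genes at 100, 300 and 1000 nM, and points the median of each library by library type. The median is 0.53 at 100 nM, 0.75 at 300 nM and 0.77 at 1000 nM, and the libraries of the last pair of doses overlap between types but not within a type.

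The 2 genes called at the step, CTGF and DKK1, are both on the list of YAP1/TAZ targets. Their promoters, and that of ANKRD1, a further target called with type terms, are shown because the TEAD factors that carry YAP1 and TAZ to DNA bind the letters GGAATG. The CYR61 promoter was planned as well, but its window was not in the RefSeq set used. That of DKK1 was added after its values were seen. The stretches below are the 250 bases before the start of each gene, from RefSeq on build GRCh38.p14, with GGAATG or its reverse complement CATTCC in capitals. The CTGF window (listed in RefSeq as CCN2) is chr6:131951373-131951622 on the minus strand, the DKK1 window chr10:52314031-52314280 on the plus strand and the ANKRD1 window chr10:90921088-90921337 on the minus strand. The levels themselves were counted on build hg19.
CTGF: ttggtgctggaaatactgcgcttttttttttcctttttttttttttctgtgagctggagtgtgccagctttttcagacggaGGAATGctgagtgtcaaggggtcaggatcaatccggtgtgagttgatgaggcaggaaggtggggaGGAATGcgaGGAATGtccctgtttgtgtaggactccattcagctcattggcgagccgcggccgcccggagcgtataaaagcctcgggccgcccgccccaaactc
DKK1: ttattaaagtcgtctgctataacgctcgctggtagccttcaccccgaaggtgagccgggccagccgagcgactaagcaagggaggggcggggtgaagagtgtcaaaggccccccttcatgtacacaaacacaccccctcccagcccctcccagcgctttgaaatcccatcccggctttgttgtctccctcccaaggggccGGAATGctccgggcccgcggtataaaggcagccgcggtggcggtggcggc
ANKRD1: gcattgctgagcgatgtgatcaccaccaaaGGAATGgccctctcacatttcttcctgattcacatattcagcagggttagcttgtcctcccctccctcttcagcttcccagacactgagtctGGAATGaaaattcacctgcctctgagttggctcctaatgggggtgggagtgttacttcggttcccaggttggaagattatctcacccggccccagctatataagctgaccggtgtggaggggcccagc

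The CTGF window holds 3 matches, which begin 169, 104 and 95 bases before the start. The ANKRD1 window holds 2, at 220 and 128 bases, and the DKK1 window 1, at 50 bases. Of 35116 promoter windows of the same length, 11.9% hold at least 1 match, 0.940% at least 2 and 0.0826% at least 3. A match of letters is no evidence of binding, and the E2F letters TTTCGCGC or TTTGGCGC were not found in these 3 windows on either strand.

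CTGF stood at 5.38, 6.41 and 6.76 FPKM in the 1000 nM libraries, against 9.05, 9.76 and 8.61 FPKM in the 300 nM libraries. All 3 libraries at 1000 nM were below all 3 at 300 nM. The means were 6.18 ± 0.714 FPKM at 1000 nM and 9.14 ± 0.579 FPKM at 300 nM (SD, n = 3 each), and the step was -0.53 ± 0.08 (log2, SE; limma, adjusted p = 0.000175). The step was -0.43 within the first library type, where the fit of first-type libraries alone did not call it (adjusted p = 1.00, limma), and -0.65 within the second. The second-type libraries held few reads of the gene, 28 and 40 at 1000 nM and 42 at 300 nM, and voom, which weights by reads, gave -0.49 with an adjusted p of 0.0791 (limma-voom). CTGF averaged 28.3 FPKM at 100 nM and had a median of 85.6 FPKM over the 6 DMSO libraries. Most of the fall was therefore complete at 300 nM, with a change from DMSO of -1.55 at 100 nM, -3.12 at 300 nM and -3.66 at 1000 nM (log2).

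DKK1 had 21.6, 17.5 and 16.5 FPKM at 1000 nM, against 24.8, 26.6 and 26.5 FPKM at 300 nM. Again the groups did not overlap. The step was -0.49 ± 0.08 (limma, adjusted p = 0.000589), with -0.54 within the first library type and -0.48 within the second. It was also called by voom (-0.51, adjusted p = 0.0259), in the first-type libraries alone (adjusted p = 0.0116, limma) and with type terms. DKK1 averaged 78.8 FPKM at 100 nM, and its DMSO median was 195 FPKM. Groups that do not overlap were seen for 2.87% of all genes with 1000 nM lower and for 2.41% with 1000 nM higher.

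CYR61, a secreted matrix protein related to CTGF, had 10.4, 11.6 and 14.6 FPKM at 1000 nM, against 17.3, 14.2 and 17.3 FPKM at 300 nM. The groups overlapped by 1 library of each dose, since 1000 nM replicate 3 was above 300 nM replicate 2. The step of -0.40 ± 0.08 did not pass (limma, adjusted p = 0.0878). With type terms it was the same size and was called (adjusted p = 0.0190, limma), as it was with voom (-0.50, adjusted p = 0.0434). The step was -0.55 within the first type and -0.19 within the second. CYR61 had the deepest fall of these genes against DMSO, -4.15 at 1000 nM and -3.75 at 300 nM, to 12.2 ± 2.17 and 16.2 ± 1.79 FPKM (SD, n = 3 each) against a DMSO median of 222 FPKM.

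ANKRD1, a nuclear cofactor in muscle and a common readout of YAP1 activity, had 11.8, 9.13 and 14.2 FPKM at 1000 nM, against 13.9, 15.4 and 12.6 FPKM at 300 nM. The groups overlapped, with the lowest level in the first-type library at 1000 nM. The step was -0.26 ± 0.13 (limma, adjusted p = 0.905) and, with type terms, -0.37 (adjusted p = 0.0149, limma). Within the first type it was -0.51 and within the second -0.24. The plot of levels by library shows these genes beside others with no call at the step in the main fit.

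**Figure D2:**
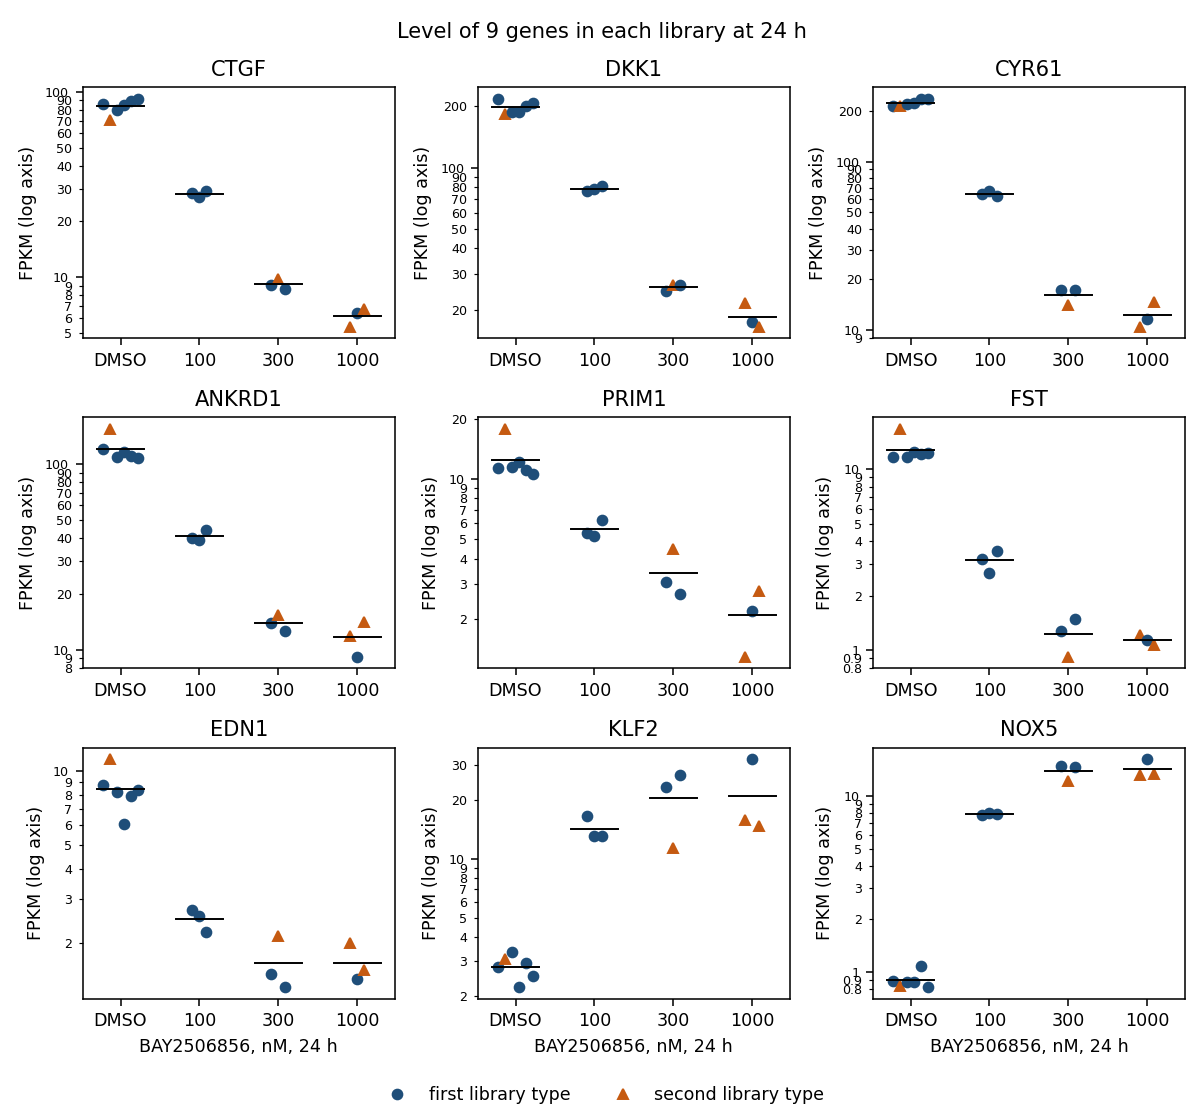
FPKM on a log axis in each library at 24 h under DMSO and 100, 300 and 1000 nM of BAY2506856, for 9 genes, with the mean of each group as a line and the library type as the marker. CTGF and DKK1 lie lower in all 3 libraries at 1000 nM than in those at 300 nM, while FST, EDN1, KLF2 and NOX5 overlap between the same doses.

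Most other targets of YAP1/TAZ were not called at the step. Among the 28 list members tested, 2 were called lower at the step and none higher, and 4 were called lower with type terms. The median step of the list was -0.04, against -0.005 over all genes tested, and 21 of 28 members had an interval within 1.5-fold. The list as a whole had a median change from DMSO of -0.57 at 100 nM, -1.03 at 300 nM and -1.02 at 1000 nM. At 1000 nM 20 members were called lower than DMSO and 1 higher, and at 300 nM also 20 and 1. Over all genes, 34.7% were called against DMSO at 1000 nM, 15.6% lower and 19.1% higher, and 30.7% at 300 nM, 14.2% lower and 16.5% higher. At 100 nM 9.2% were called lower and 10.5% higher. FST, which binds activins and is not on the list, had 1.21, 1.14 and 1.06 FPKM at 1000 nM, against 1.27, 0.915 and 1.49 FPKM at 300 nM. Its groups overlapped fully, at a DMSO median of 12.2 FPKM, and the step was -0.06 ± 0.10 with a 95% interval from -0.26 to 0.13. EDN1, the precursor of the vasoconstrictor endothelin, had 1.99, 1.42 and 1.55 FPKM at 1000 nM, against 1.49, 2.14 and 1.32 FPKM at 300 nM. Its step was 0.02 ± 0.14 (interval -0.27 to 0.30). Both genes stood near 1 FPKM, where an added 0.5 FPKM shrinks a log2 difference. AMOTL2, a scaffold that binds YAP1, had a step of -0.24 ± 0.21 and FJX1, a secreted kinase-related protein, of -0.59 ± 0.42, with adjusted p = 0.905 each (limma). Both intervals reached beyond 1.5-fold, from -0.66 to 0.17 for AMOTL2 and from -1.43 to 0.26 for FJX1.

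No replication gene was called at the step, though most had values below 0. All 47 genes of DNA replication and S phase were called lower than DMSO at 1000 nM and at 300 nM, and 39 at 100 nM. Their median change from DMSO was -0.74 at 100 nM, -1.30 at 300 nM and -1.45 at 1000 nM. The median step between 300 and 1000 nM was -0.13, with 39 of 47 members below 0, against a median of -0.005 and 51% of genes below 0 over all genes tested. With type terms 1 of the 47 was called. The median was -0.16 with type terms, -0.16 within the first library type and -0.17 within the second. Below 0 in both types were 31 members and above 0 in both none, against 4260 and 4174 of all 15866 genes. The members share their libraries, and all values of the first type turn on 1000 nM replicate 2. The plot of the step within each type shows both cell-cycle lists.

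PRIM1, the catalytic subunit of DNA primase, had 1.29, 2.20 and 2.76 FPKM at 1000 nM, against 3.05, 4.46 and 2.67 FPKM at 300 nM. The groups overlapped by 1 library of each dose. The step was -0.61 ± 0.18 (limma, adjusted p = 0.568) and, with type terms, -0.72 (adjusted p = 0.0104, limma). It was -0.31 within the first type and -1.04 within the second, where the gene had 7 and 17 reads at 1000 nM and 20 at 300 nM. A further 3 genes, named after their values were seen, were called lower with type terms only. AUNIP, a partner of the kinase Aurora A, had 0.560, 0.702 and 0.328 FPKM at 1000 nM, against 1.10, 1.13 and 0.993 FPKM at 300 nM, without overlap. Its step with type terms was -0.67 (adjusted p = 0.0182, limma), and its second-type libraries held 3 and 2 reads at 1000 nM and 5 at 300 nM. CTPS1, which makes the nucleotide CTP, had a step of -0.33 with type terms (adjusted p = 0.0182, limma). DSCC1, part of a complex that loads the replication clamp, had -0.63 (adjusted p = 0.0251, limma).

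**Figure D3:**
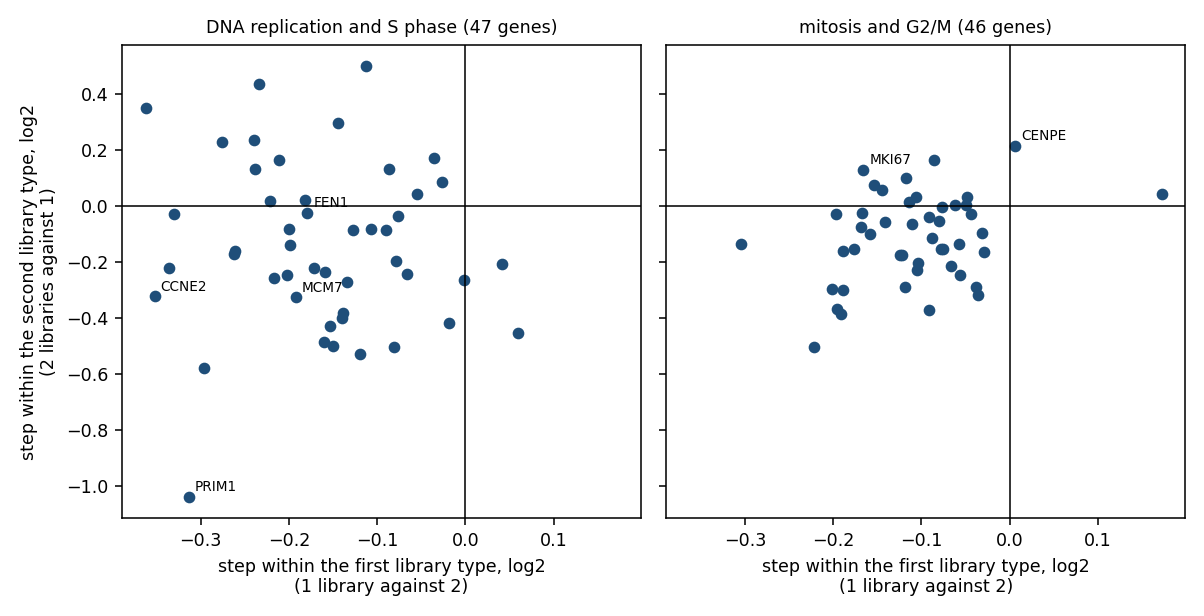
Step from 300 to 1000 nM at 24 h (log2 of FPKM + 0.5) within the first library type (horizontal, 1 library at 1000 nM against 2 at 300 nM) and within the second (vertical, 2 against 1), for 47 genes of DNA replication and S phase and 46 genes of mitosis. Of the replication genes 31 lie below 0 on both axes and none above 0 on both, and of the mitosis genes 34 and 2.

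MCM7 and MCM3 are subunits of the replicative helicase. MCM7 averaged 26.0 ± 2.73 FPKM at 1000 nM and 32.1 ± 1.02 FPKM at 300 nM (SD, n = 3 each), and MCM3 34.2 and 39.8 FPKM. Their steps were -0.30 ± 0.08 for MCM7 and -0.21 ± 0.06 for MCM3, with adjusted p = 0.448 for both (limma). PCNA, the replication clamp, had a step of -0.23 ± 0.08 (adjusted p = 0.752, limma), and CCNE2, a cyclin of the G1 to S transition, of -0.22 ± 0.17 (adjusted p = 0.905). CDC6, which loads the helicase onto origins, had 5.97, 4.91 and 5.48 FPKM at 1000 nM, against 6.31, 5.84 and 6.31 FPKM at 300 nM. The groups overlapped by 1 library, and the step was -0.16 ± 0.08 (adjusted p = 0.905, limma). UHRF1, which helps maintain DNA methylation, had a step of -0.17 ± 0.18, with -0.05 within the first type and 0.04 within the second. RefSeq had promoter windows for 39 of the 47 genes, and 9 of these genes hold the E2F letters, against 185 of 8747 tested genes with a window (2.12%) and 327 of all 27305 with one (1.20%).

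Mitosis genes changed sign with the treatment of the library types. Of 46 members tested, 40 were called lower than DMSO at 1000 nM and 42 at 300 nM. Their median step between the doses was 0.00, with 22 of 46 below 0, and none was called. With type terms the median was -0.09, with 39 of 46 below 0, against 47.7% of all genes, and it was -0.11 within each library type. MKI67, the proliferation marker, had 26.4, 18.3 and 28.2 FPKM at 1000 nM, against 21.5, 24.9 and 19.7 FPKM at 300 nM. The second-type libraries were the high ones at both doses, and the step was 0.12 ± 0.15, or 0.02 with type terms. CENPE, a kinetochore motor, had the largest positive step of the list, 0.47 ± 0.34, with 0.01 within the first type and 0.21 within the second. Genes of ribosome biogenesis, 33 of 34 called lower than DMSO at both doses, had a median step of -0.02, or -0.04 with type terms. None of them was called at the step, and 25 of 34 had an interval within 1.5-fold. RRS1, a factor of ribosome assembly, had 2.90, 3.47 and 1.39 FPKM at 1000 nM, against 3.08, 1.27 and 3.95 FPKM at 300 nM, and its groups overlapped.

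No gene raised by the compound was called at the step. Of the 1662 genes called higher at 100 nM than under DMSO, 1230 had a step within 1.5-fold by its interval and 432 were undetermined. Their median step was -0.02, with 0.04 within the first library type and 0.02 within the second. NOX5, an NADPH oxidase, had 13.0, 16.2 and 13.2 FPKM at 1000 nM, against 14.7, 12.1 and 14.6 FPKM at 300 nM. Its libraries at 1000 nM were above those at 300 nM within each type, by 0.14 in the first and 0.12 in the second (log2), and the groups overlapped between types. Its step was 0.03 ± 0.12 (interval -0.21 to 0.28), while the step from 100 to 300 nM had been 0.76 (adjusted p = 6.0e-05, limma). AGR2, a disulfide isomerase of the secretory pathway, had 29.7, 26.7 and 27.8 FPKM at 1000 nM, against 25.1, 25.2 and 25.8 FPKM at 300 nM. All 3 libraries at 1000 nM were above the 3 at 300 nM, but the step of 0.14 ± 0.12 did not pass (adjusted p = 0.905, limma). PI16, a peptidase inhibitor, had a step of 0.10 ± 0.28, with 0.27 within the first type and 0.28 within the second. SLC43A2, an amino acid transporter, had -0.05 ± 0.23, with 0.24 and 0.31 within the types. The Krüppel-like factor KLF2 had 15.8, 32.3 and 14.7 FPKM at 1000 nM, against 23.1, 11.3 and 26.8 FPKM at 300 nM. Its first-type libraries were the high ones at both doses. Within the types 1000 nM was higher without overlap, by 0.37 in the first and 0.41 in the second, and its interval of -0.76 to 0.83 left a step of 1.5-fold undetermined. The plot of single steps gives these intervals beside the values within each type.

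**Figure D4:**
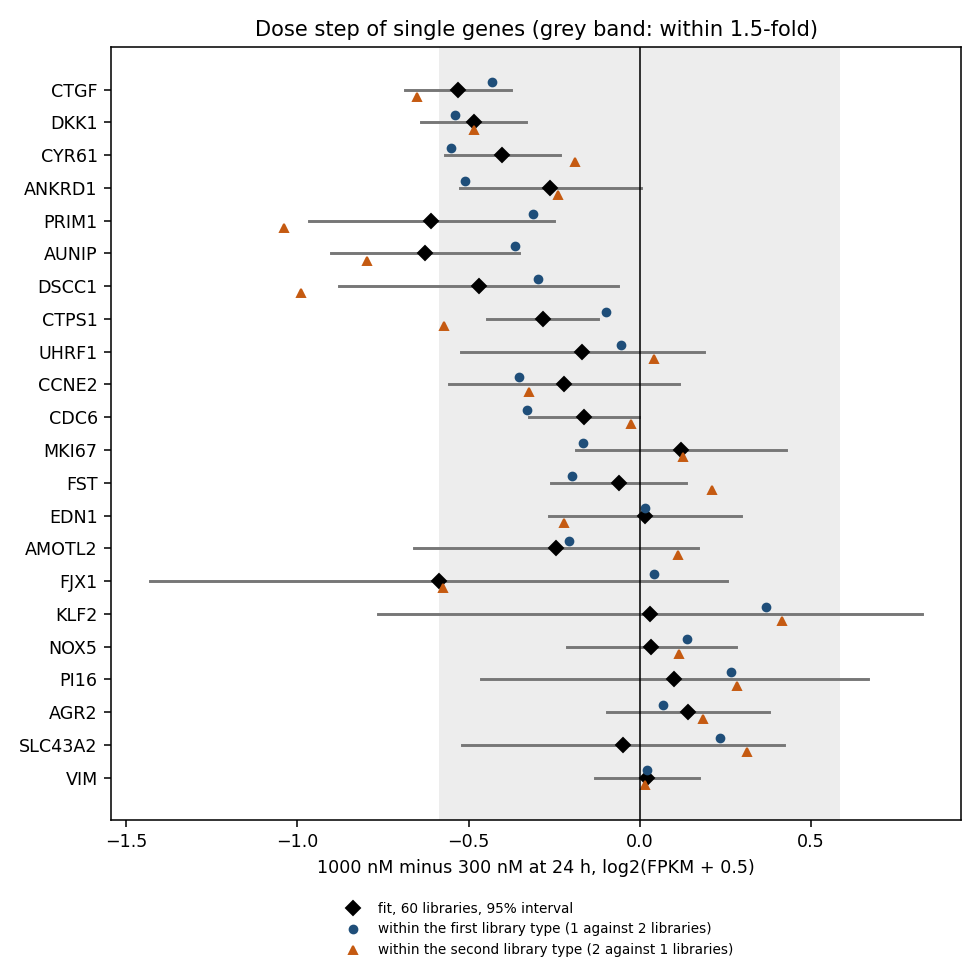
Step from 300 to 1000 nM at 24 h (log2 of FPKM + 0.5) of 22 genes, with the 95% interval of the fit as a line, and the values within the first and the second library type as circles and triangles. The grey band marks 1.5-fold in either direction. The intervals of CTGF and DKK1 lie wholly below 0, from -0.69 to -0.38 and from -0.64 to -0.33, and that of NOX5 spans 0.

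The longer lists of raised genes gave no call at the step either. Genes of CDK inhibition and quiescence had a median change from DMSO of 0.54 at 100 nM, 0.77 at 300 nM and 0.82 at 1000 nM, and a median step of 0.04. Of 26 members, 23 had an interval within 1.5-fold. TXNIP, a regulator of glucose uptake named after its values were seen, stood at 291 ± 11.5 FPKM at 1000 nM and 287 ± 16.3 FPKM at 300 nM (SD, n = 3 each). Its step was 0.02 ± 0.06. The 12 KLF factors had a median step of 0.12, with 10 of 12 above 0, 6 above 0 in both library types and none below 0 in both. The highest single steps were 0.33 ± 0.13 for KLF7 and 0.29 ± 0.17 for KLF9, with adjusted p = 0.828 and 0.905 (limma). Targets of NRF2 and the aryl hydrocarbon receptor had a median step of 0.10, with 16 of 22 above 0, and 11 above and 2 below 0 in both types. For genes of the extracellular matrix the median step was -0.07, but 0.04 with type terms. The same turn of sign between the fit without and with type terms was seen for immediate early genes, -0.10 and 0.04, and for inflammatory targets, -0.06 and 0.07.

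The remaining lists had no member called at the step, with or without type terms. Genes of the actin cytoskeleton had a median step of -0.05, or -0.02 with type terms. Enzymes of protein prenylation had a median step of 0.08, or 0.03 with type terms. Genes of mevalonate and cholesterol synthesis had -0.08 and -0.04. FDPS, which makes farnesyl diphosphate, had a mean of 27.2 ± 2.78 FPKM at 1000 nM and 32.3 ± 2.84 FPKM at 300 nM (SD, n = 3 each), and its step of -0.24 ± 0.08 did not pass (adjusted p = 0.752, limma). Interferon-stimulated genes had a median step of 0.00, or 0.01 with type terms. Genes of the unfolded protein response had 0.00 and 0.04, and ERK feedback genes -0.02 and 0.04, a turn of sign. Lysosomal genes had -0.08, or 0.00 with type terms, and glycolytic and hypoxia genes -0.07 and 0.00. Subunits of the respiratory chain had -0.09, with 26 of 35 below 0, or -0.03 with type terms. Mitochondrially encoded messages had -0.11, with 10 of 13 below 0, or -0.07 with type terms. VIM, a filament protein of mesenchymal cells, averaged 508 FPKM at 1000 nM and 501 FPKM at 300 nM (n = 3 each), a step of 0.02 ± 0.08.

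**Figure D5:**
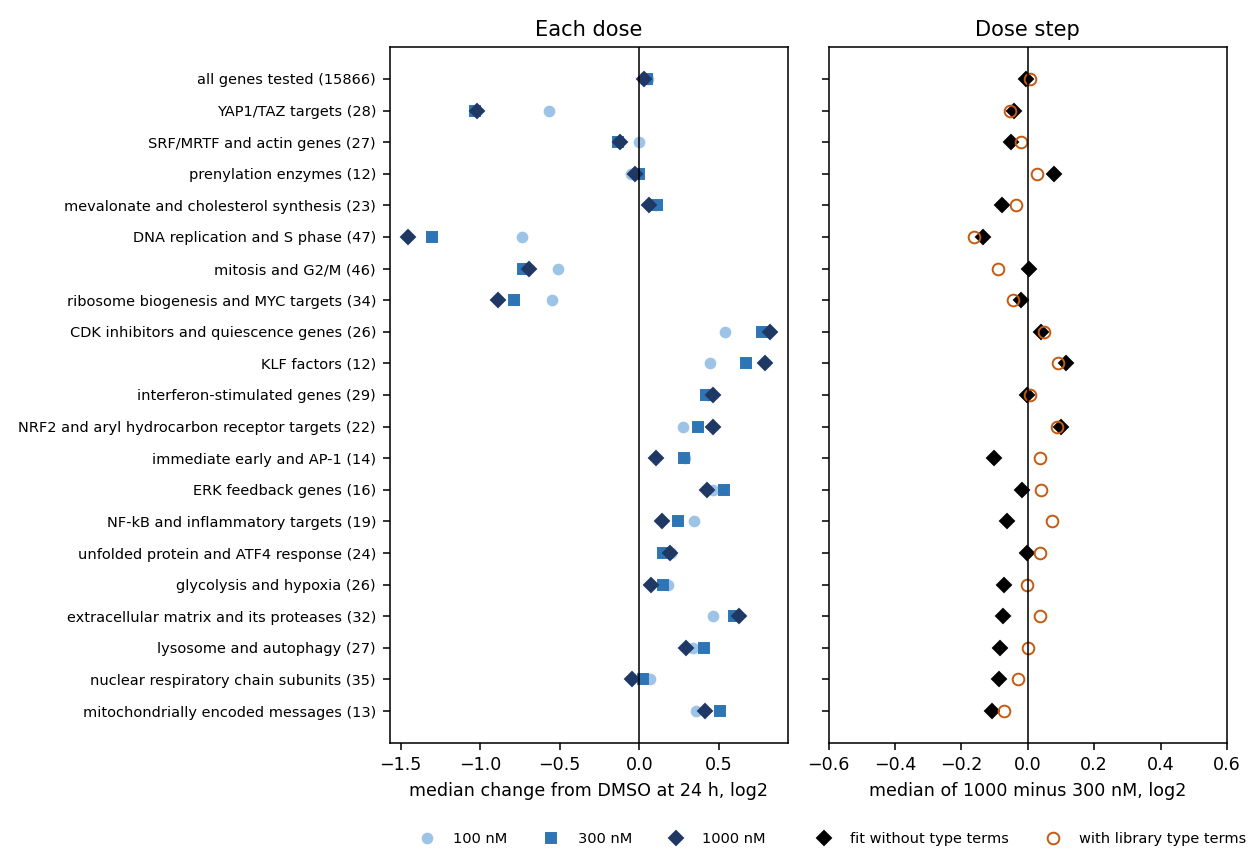
Median over the genes of each list of the change from DMSO at 24 h at 100, 300 and 1000 nM (left, log2 of FPKM + 0.5) and of the step from 300 to 1000 nM (right), without and with terms for library type. The number of genes tested is given with each name. The replication list has a median step of -0.13 and -0.16, and the list of YAP1/TAZ targets of -0.04 and -0.05.

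Levelling off itself was tested by the step from 300 to 1000 nM less the step from 100 to 300 nM, both being about 3-fold in dose. The 2 library types weigh equally in this contrast, so type terms left its estimates as they were. It was called for 14 genes (0.0882% of those tested), all with a positive value, while 486 had an unadjusted p under 0.05. With type terms 35 were called (0.221%), which included the 14 and held 31 positive (0.195%) and 4 negative values (0.0252%). A positive value of a falling gene means that its fall had slowed, which held for 13 of the 14, the exception being a pseudogene whose step was above 0. Among the 14, the largest values of protein-coding genes were 1.56 ± 0.14 for CYR61, 1.26 ± 0.23 for ANKRD1, 1.10 ± 0.13 for DKK1 and 1.05 ± 0.13 for CTGF (log2, SE). With type terms NEXN, an actin-binding protein, was called at 1.67 ± 0.29 (adjusted p = 0.000866, limma) and CDCA7, a partner of the chromatin remodeller HELLS, at 1.08 ± 0.21 (adjusted p = 0.00632, limma). CTGF and DKK1 thus changed further and had slowed at the same time, CTGF by -1.58 from 100 to 300 nM and -0.53 from 300 to 1000 nM. FST followed with 1.02 ± 0.17, and THBS1, the matrix protein thrombospondin, with 0.59 ± 0.13. Of the replication genes, CDC45 had 0.81 ± 0.18, ORC1 0.78 ± 0.16, CDC6 0.71 ± 0.14, FEN1 0.67 ± 0.09, RRM2 0.66 ± 0.13, MCM4 0.63 ± 0.11 and MCM3 0.48 ± 0.10. The list of 47 replication genes held 7 of the 14 calls and the list of YAP1/TAZ targets 4. Both lists were chosen with earlier results of these data known, so these counts are no independent support. The count was 5 without 300 nM replicate 2 and 9 without 1000 nM replicate 1. Voom on the recovered reads called 12 genes, of which 10 were among the 14, and ORC1, CDC45 and CDC6 were not. No gene was called with a negative value in the main fit, which has no type terms. The 4 called with them were higher at 100 nM than under DMSO, so that their rise had slowed or stopped, and among them were PLXNA2, a semaphorin receptor, at -0.66 ± 0.14 (adjusted p = 0.0206, limma), and EZR, which links actin to the cell membrane, at -0.31 ± 0.07 (adjusted p = 0.0431, limma). Voom called NOX5 too, at -0.77 without type terms (adjusted p = 0.0279, limma-voom) and at -0.73 with them (adjusted p = 6.7e-06, limma-voom).

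At 6 h the same pair of doses, in other libraries, gave no call by limma, without or with type terms, or by voom, where 229, 307 and 367 genes had an unadjusted p under 0.05. Of these libraries, 300 nM replicate 1 was of the second type and the rest were of the first. The types were thus unevenly split at 6 h too, in the opposite direction to 24 h. The step at 6 h was -0.19 ± 0.08 for CTGF, -0.13 ± 0.08 for DKK1, -0.15 ± 0.08 for CYR61 and -0.30 ± 0.13 for ANKRD1, each with adjusted p = 0.890 (limma). The test of the difference between the step at 24 h and that at 6 h called no gene by limma, where 860 had an unadjusted p under 0.05, and none by voom, where 485 had one. For CTGF that difference was -0.34 ± 0.11 and for DKK1 -0.36 ± 0.11, with adjusted p = 0.641 for both (limma).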

How the data were processed

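The values deposited are log2(FPKM + 1) per gene and library, made by the authors with STAR 2.4.2a, featureCounts 1.4.6-p2, Subread and DESeq2 on hg19, per the submitters' processing notes, which give no order of steps. RNA was taken at 1, 3, 6 or 24 h by the labels, while the series text names 24 h. FPKM was computed back from the deposited values, and whole reads were recovered from its steps: all 1304094 values above 0 came out whole within 0.01 read. The steps were searched for until this bound was met, so it is no separate check of the reads. Recovered depth was 0.475 to 86.5 M reads (median 11.2), and 3 libraries had under 2 M. M stands for mega, and fewer reads mean more counting error.

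The main fit was limma 3.58.1 (R 4.3.3, mean-variance trend, robust) on log2(FPKM + 0.5), with 16 group means over 60 libraries, 44 residual degrees of freedom, genes at 1 FPKM or more in 3 or more libraries (15866 of 38342) and Benjamini-Hochberg adjustment over all of them. It was tested on simulated data. Library types come from the expression of 16 gene names, and terms for them are an alternative fit. The replicate number is that of accession order and pairs no samples. Comparisons that share libraries, such as each dose against DMSO and the step, are given side by side only.

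The comparison, gene lists and named genes were chosen with earlier results of these data known. Genes were named from those called at the step whose libraries do not overlap and from the 8 highest and 8 lowest changes at 100 nM. Other sources were a fixed set of 23 genes and the 3 largest steps, or fewer, in every list. The last were the 4 highest and 4 lowest of the levelling contrast. Not every gene under these rules is given above. Other genes are named as chosen after their values were seen, which holds for AUNIP, CTPS1, DSCC1, TXNIP, PCNA, MCM3, MCM4, MCM7, ORC1, CDC45, FEN1, RRM2, THBS1, PLXNA2, EZR, NEXN and CDCA7, and for showing the DKK1 promoter. Clone names and pseudogenes were left unnamed, and 1 gene group is not reported here. Sequences are from RefSeq.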

Additional observations from a re-analysis of the deposited data

Results flagged for a closer look

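Among 23 genes screened in the 6 DMSO libraries at 24 h, 5 had 1 library far from the others, where chance alone flags about 1 in 20 groups. DMSO replicate 2, the library with 0.475 M reads and of the second type, stood out for 4 of them. It had 156 FPKM of ANKRD1, with the others between 109 and 120 FPKM. It had 16.7 FPKM of FST, with the others between 11.7 and 12.4 FPKM, and 17.8 FPKM of PRIM1, with the others between 10.5 and 12.2 FPKM. It had 1.69 FPKM of FJX1, with the others between 9.71 and 11.7 FPKM. DMSO replicate 5 had 1.08 FPKM of NOX5, with the others between 0.817 and 0.890 FPKM. The step from 300 to 1000 nM uses none of these libraries in its difference, though they enter the pooled spread.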

How the results depend on the processing

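The steps of CTGF and DKK1 were below 0 under every alternative run, but values not called changed sign. With type terms the median step of the genes called at 100 nM was 0.04, against -0.01 without, and that of mitosis genes, extracellular matrix, immediate early, inflammatory and ERK feedback lists also turned. The count of genes called at the step was 5 with a pseudocount of 0.1, 61 with no filter on low values, 0 in a fit of the 2 groups alone or of the 4 groups at 24 h, 8 with type terms and 5 without the libraries under 2 M reads. It ranged from 2 to 92 with 1 library left out. Array weights gave 7541 calls, 3741 higher and 3800 lower, from an estimation of weights that stopped with a convergence warning. They put weights of 1.56 on 1000 nM replicate 1, of the second type, and 5.66 on 300 nM replicate 3, of the first type, against 0.171 on 1000 nM replicate 2, 0.274 on 1000 nM replicate 3, 0.784 on 300 nM replicate 1 and 0.127 on 300 nM replicate 2, so that this fit set mostly a second-type library against a first-type one. Array weights also gave 8323 calls at 300 nM against DMSO, 8715 at 1000 nM, 6392 at 100 nM, 2252 for the step from 100 to 300 nM, 5627 for levelling off, 30 for the step at 6 h and 5880 for its change between 6 and 24 h. With type terms the counts were 4855 at 100 nM, 641 for the step from 100 to 300 nM and 35 for levelling off. Genes called at 100 nM with a step interval within 1.5-fold then numbered 4373. In first-type libraries alone the counts were 5660 at 100 nM, 847 for the step from 100 to 300 nM and 5037 genes within 1.5-fold. The step interval there rests on 1 library at 1000 nM. The fit of the 4 groups at 24 h gave 1634 at 100 nM, 22 for the step from 100 to 300 nM and 1 for levelling off. It put 1344 genes within 1.5-fold. Voom gave 393 for the step from 100 to 300 nM. Voom with type terms, added after the data were seen, gave 8854 at 300 nM and 5396 at 100 nM. It gave 1692 for the step from 100 to 300 nM, 65 for levelling off and 5062 genes within 1.5-fold. Without a filter, levelling off had 58 calls and the step at 6 h 10, and without the libraries under 2 M reads levelling off had 9. With 1 library left out, levelling off ranged from 5 to 21 calls, and genes within 1.5-fold from 2010 to 2449. The cause of these shifts was not tested, apart from the weights given. No paired analysis was possible because the labels number the libraries from 1 to 60 and give no number shared between groups. Genes at a few reads in the second-type libraries, such as AUNIP, are limited by depth.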
